A study of Mus musculus with 6 samples.

Results

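The teashirt genes Tshz1, Tshz2 and Tshz3 were examined in newborn mouse cortex that carried a Zbtb20 transgene. Every probe set whose only gene symbol in the platform annotation was Tshz1, Tshz2 or Tshz3 was taken, which gave 3 of 18193 genes and 6 of the 45037 probe sets that are not controls: 2 for Tshz1, 3 for Tshz2 and 1 for Tshz3. A probe set is a group of short oligonucleotides on the array that read 1 transcript. The family was chosen by the measured difference between these same arrays, on which Tshz2 and Tshz3 were already known to stand far apart between the genotypes, so its values are given as a description and carry no test.

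The transgenic tissue was subiculum and retrosplenial cortex, described by the submitters as transformed towards CA1, from D6/Zbtb20S transgenic mice, with 3 arrays. The same areas of wildtype littermates gave another 3 arrays. All mice were of the C57BL/6 background and were taken on postnatal day 1, and 7 animals were pooled for each array. Zbtb20 is a zinc finger repressor of developing hippocampal pyramidal neurons, and which promoter drives the transgene, in which cells it is active and whether the mice descend from 1 founder are not given in the sources used here. Nothing says whether the pools of a genotype came from separate litters, so errors measure the spread between these pools, which may be partly technical.

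Teashirt proteins are nuclear zinc finger proteins that carry an atypical homeodomain and act mostly as repressors of transcription. The founding gene, teashirt of Drosophila, patterns the trunk of the fly embryo together with the Hox genes. In the mouse brain, Tshz1 is known from migrating olfactory bulb interneurons and from striatal and amygdalar neurons, Tshz2 from retrosplenial cortex and from the near-projecting neurons of layer V, and Tshz3 from cortical projection neurons and their connections to the striatum. These roles are background and were not measured here.

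The bases just before the annotated start of Tshz2 and of Tshz3 are shown because signals of both genes were far lower on the transgenic arrays, and because the windows differ in composition. They come from RefSeq on build GRCm38.p6, plus strand, and cover chr2:169632259-169632508 for Tshz2 and chr7:36697868-36698117 for Tshz3. Each runs 5′ to 3′ and ends at the base before the start, with matches to GGGCGG (the GC box) and CCAAT, searched on both strands, in capitals.
Tshz2: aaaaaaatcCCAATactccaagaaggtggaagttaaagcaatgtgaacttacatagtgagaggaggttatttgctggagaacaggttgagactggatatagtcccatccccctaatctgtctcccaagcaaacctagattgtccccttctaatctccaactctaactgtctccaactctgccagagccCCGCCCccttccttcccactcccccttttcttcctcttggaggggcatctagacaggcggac
Tshz3: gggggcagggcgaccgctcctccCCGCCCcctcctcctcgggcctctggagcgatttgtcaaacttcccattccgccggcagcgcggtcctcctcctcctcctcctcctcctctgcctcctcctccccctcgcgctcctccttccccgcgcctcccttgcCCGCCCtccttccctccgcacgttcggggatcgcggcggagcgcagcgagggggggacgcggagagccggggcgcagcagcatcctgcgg

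The Tshz3 window was rich in G and C (74.0%) and held 27 CpG dinucleotides, more than 91.4% of the 32536 RefSeq windows of the same length, whose median was 6. The Tshz2 window held 2 CpG dinucleotides at 48.8% G and C, against a median of 52.4% over all windows. All GC boxes found were on the minus strand. The base of the box farthest from the start lay 62 bases before it in Tshz2, and 227 and 90 bases before it in Tshz3. At least 1 GC box was present in 33.0% of all windows, and CCAAT, matched once before Tshz2, in 33.8%. The letters TATAAA, present in 12.3% of windows, were in neither. No binding of Zbtb20 or of any other factor was measured in these data.

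Tshz2, a marker of retrosplenial cortex, was the gene with the largest fall in transgenic tissue among 18193 genes. Its probe set with the highest signal, 1435385_at, read 4.30, 4.63 and 4.63 on the log2 scale in D6/Zbtb20S replicates 1, 2 and 3, against 8.77, 8.87 and 8.51 in wildtype replicates 1, 2 and 3. The groups were separated by 3.88 between the nearest arrays, while the range within a group was 0.34 in transgenic and 0.35 in wildtype tissue. The mean was 4.52 ± 0.19 in D6/Zbtb20S and 8.72 ± 0.18 in wildtype tissue (SD, n = 3 each). The difference, D6/Zbtb20S minus wildtype, was -4.20 ± 0.13 (standard error of the limma fit), or 18.3-fold lower.

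The other Tshz2 probe sets gave the same direction. On 1459250_at the D6/Zbtb20S replicates read 1.66, 1.26 and 1.20, against 4.89, 5.69 and 5.64 in the wildtype replicates, a difference of -4.04 ± 0.22 (16.4-fold lower). On 1428026_at they read 2.46, 3.33 and 3.17 in D6/Zbtb20S and 6.14, 6.45 and 6.21 in wildtype replicates 1 to 3, a difference of -3.28 ± 0.21 (9.73-fold lower). The groups did not overlap on either set. Transgenic signals of these sets lay under the median of their own array in all 3 arrays, whereas all 3 transgenic arrays stayed above it on 1435385_at. Array medians were 3.83 to 3.97, and a fold that ends under them may be too small, since this kind of summary compresses low signals.

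Transgenic replicate 1 was the lowest transgenic array on 1435385_at and 1428026_at and the highest on 1459250_at. Among wildtype arrays, replicate 2 was the highest on all 3 Tshz2 sets. No array therefore stood apart in the same way on every set in transgenic tissue. The mean over the 3 sets was -3.84, against -4.20 for the brightest set alone.

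Tshz3, read by 1 probe set, was the fourth-largest fall among genes. On 1435337_at the D6/Zbtb20S replicates read 5.70, 5.60 and 5.51, against 8.84, 9.17 and 8.72 in the wildtype replicates. The nearest arrays of the groups were 3.02 apart, and all 6 arrays lay above their array median. The mean was 5.60 ± 0.096 in D6/Zbtb20S and 8.91 ± 0.23 in wildtype tissue (SD, n = 3 each), a difference of -3.31 ± 0.12 or 9.90-fold lower. With a single probe set, no second reading of the gene on the same arrays was possible.

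Tshz1 did not share this pattern. On 1427233_at, its brighter set, the D6/Zbtb20S replicates read 6.15, 6.20 and 5.98, against 5.71, 5.67 and 6.07 in the wildtype replicates. The groups overlapped, since wildtype replicate 3 lay above transgenic replicate 3. The difference was 0.30 ± 0.12 (1.23-fold). On 1427232_at the D6/Zbtb20S replicates read 5.81, 5.84 and 5.80, against 5.37, 5.25 and 5.71 in the wildtype replicates. Here the groups were 0.09 apart and the difference was 0.38 ± 0.12 (1.30-fold). Both Tshz1 signals were above the array median on all 6 arrays.

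On both Tshz1 sets wildtype replicate 3 was the highest wildtype array, by 0.38 and 0.41 over the mean of the other wildtype arrays. Without it the differences were 0.42 on 1427233_at and 0.51 on 1427232_at. The same array was the highest of the wildtype arrays on 1422064_a_at, the Zbtb20 probe set with the largest difference, with 8.88, 9.10 and 8.94 in D6/Zbtb20S and 6.44, 5.84 and 7.64 in wildtype replicates 1 to 3. Its actin control also had the largest 3′-minus-5′ signal, a measure of RNA integrity, at 0.80, 0.91 and 0.83 in D6/Zbtb20S and 0.53, 0.88 and 1.31 in wildtype replicates. The part of either in the Tshz1 values was not tested. Tshz2 and Tshz3 moved little without that array, to -4.30 on 1435385_at and -3.40 on 1435337_at.

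**Figure D1:**
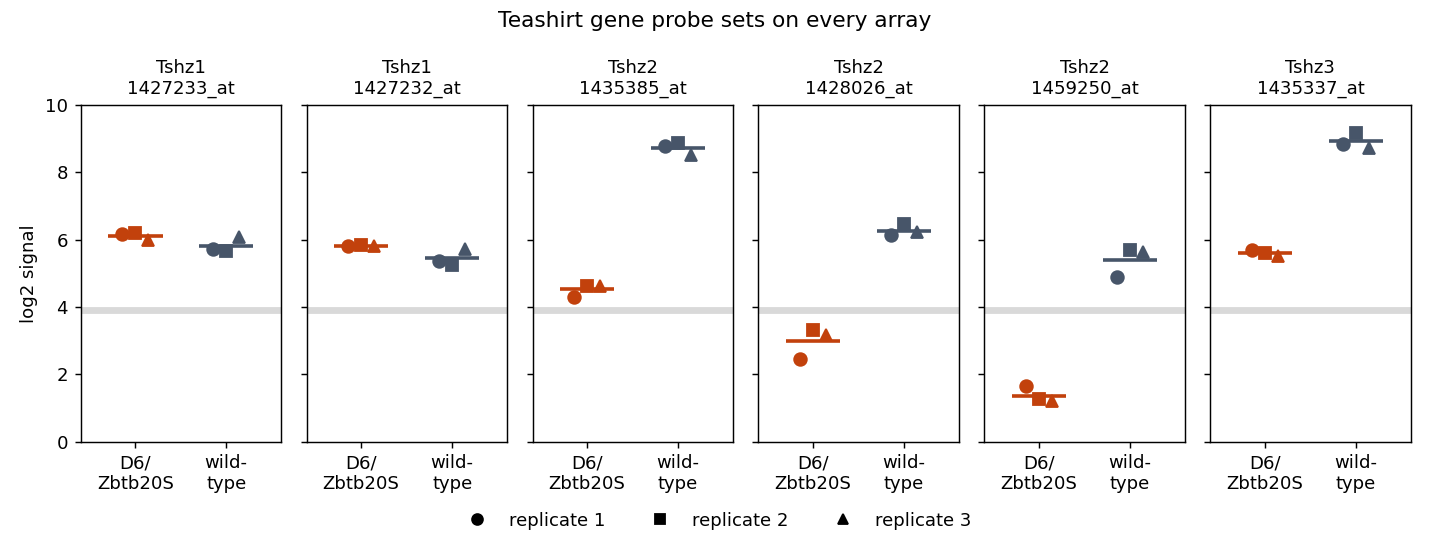
Log2 signal (vertical axis) of the 6 teashirt probe sets on each array, D6/Zbtb20S left and wildtype right in each panel, with a symbol for the replicate number, a line at the mean of 3 arrays and a grey band over the range of array medians (3.83 to 3.97). The Tshz2 and Tshz3 panels show separated groups, with transgenic signals under the band on 1428026_at and 1459250_at, while on the Tshz1 sets no transgenic array exceeds a wildtype array by more than 0.59.

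Of the 6 teashirt probe sets, 4 passed an adjusted p under 0.05 in limma, all of them lower, in a comparison where 5.52% of all probe sets passed and 2.11% passed as lower. Groups did not overlap on 5 of the 6 sets, and on 23.7% of all probe sets. Because this contrast chose the genes, nothing is read from these counts. Of all 45037 probe sets, 1435385_at had the second-largest fall, 1459250_at the fourth, 1435337_at the seventh and 1428026_at the eighth. In bulk tissue, fewer cells that express a gene and less RNA per cell cannot be told apart, for these genes and for those that follow.

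**Figure D2:**
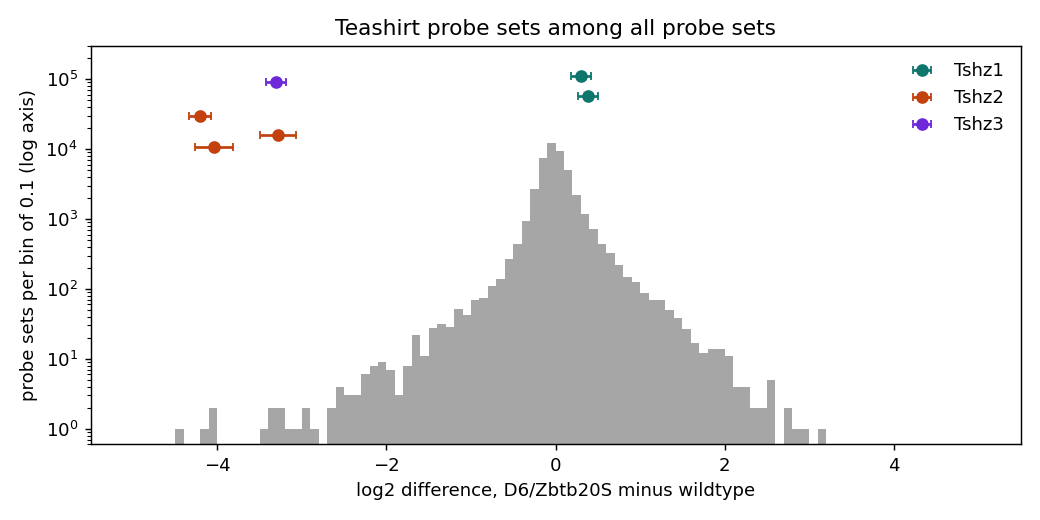
Number of probe sets (vertical axis, logarithmic) by log2 difference, D6/Zbtb20S minus wildtype (horizontal axis, bins of 0.1), with the teashirt probe sets as points with their standard errors, placed at arbitrary heights. The Tshz2 sets (-4.20, -4.04 and -3.28) and the Tshz3 set (-3.31) lie at the far left edge and the Tshz1 sets (0.30 and 0.38) in the shoulder of the main peak.

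The genes whose pattern was most like Tshz2 and Tshz3 were sought among 18193 genes, as the smallest distance between log2 profiles after each gene's mean over the 6 arrays was removed. The measure follows mainly the size of the genotype difference, and the arrays are shared, so it is a description. Tshz3 lay at 1.17 from Tshz2 and was its second-nearest gene, while Tshz1 lay at 5.54 from Tshz2 and 4.45 from Tshz3. The 5 nearest genes of Tshz2 were Slc26a7 (distance 0.41, Pearson's r 0.997 over 6 arrays), Tshz3, Nr4a2 (1.21), Grp (1.50) and Fosl2 (1.73). Those of Tshz3 were Nr4a2 (distance 0.19, r 0.999), Grp (0.39), Fosl2 (0.57), Ccbe1 (0.89) and Slc26a7 (0.92). The lists share 4 genes, which is 4 of 5 in each.

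Slc26a7, an anion exchanger gene, read 2.08, 1.97 and 1.98 in D6/Zbtb20S and 6.12, 6.18 and 5.85 in wildtype replicates, under the array median on all transgenic arrays. Nr4a2, an orphan nuclear receptor, read 6.86, 6.57 and 6.46 in D6/Zbtb20S and 9.84, 10.21 and 9.85 in wildtype replicates. Their groups did not overlap. Probe sets of the same genes did not always follow: 4 of 5 further Nr4a2 sets passed as lower, but the other set of Slc26a7 (0.00 ± 0.10) and of Fosl2, an AP-1 factor gene (-0.05 ± 0.08), did not pass, and of 3 further Ccbe1 sets 1 did. The other Slc26a7 set, the Nr4a2 set that did not pass and all 3 further Ccbe1 sets lay under the array median on all 6 arrays. They were thus read near the floor, whereas the other Fosl2 set lay above the median on all 6. Grp, which encodes gastrin-releasing peptide, had 1 set like Tshz3. Tshz2 was lower on all 3 of its sets.

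**Figure D3:**
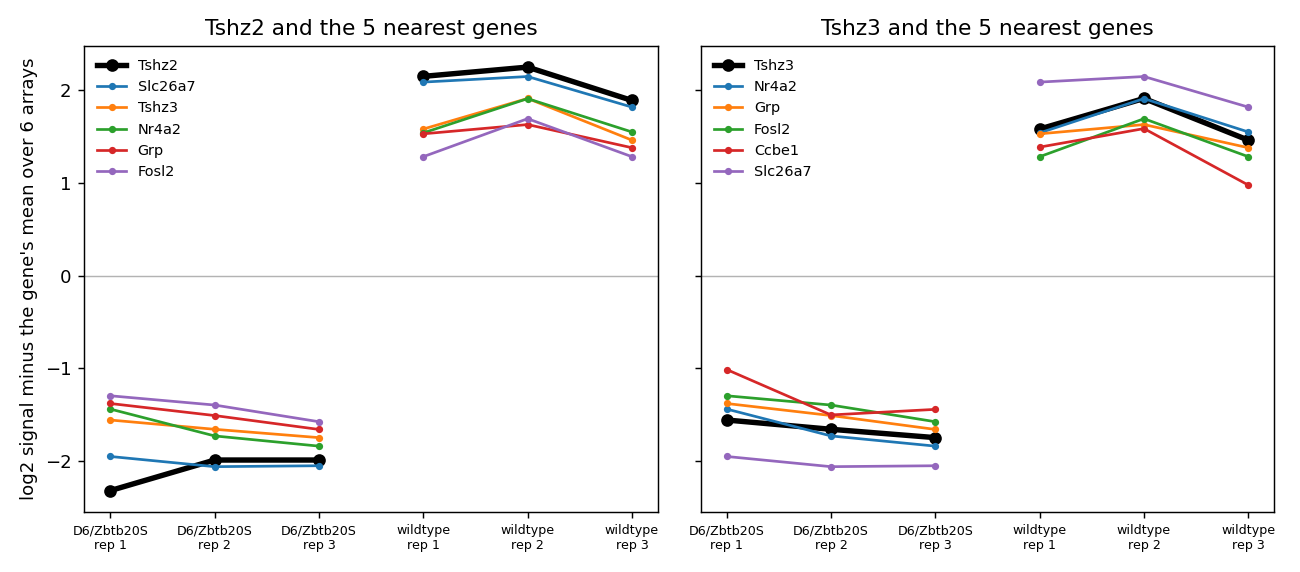
Log2 signal minus the gene's own mean over 6 arrays (vertical axis) on each array, D6/Zbtb20S arrays first, for Tshz2 (left) and Tshz3 (right) as a thick black line and their 5 nearest genes as thin lines. Slc26a7 runs closest to Tshz2 (distance 0.41), and Nr4a2 closest to Tshz3 (distance 0.19).

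The teashirt genes belong to the zinc finger class of homeobox genes, and the other members of that class were taken next. Of 10 measured members, 4 rose, 0 fell and 6 did not pass (limma adjusted p under 0.05), in a fit where 7.71% of all genes passed and 4.06% passed as higher. The median difference of the list was 0.37, against -0.015 over all genes. Zeb2, a repressor known from neural crest and from neuron differentiation, rose 2.51-fold, to 9.37, 9.48 and 9.30 in D6/Zbtb20S, against 7.97, 7.94 and 8.25 in wildtype replicates (1.33 ± 0.10, adjusted p = 5.13e-05). Its 4 other probe sets also passed as higher, with differences from 1.14 to 2.88. The Zeb2 groups did not overlap, and ran opposite to those of Tshz2 and Tshz3.

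Zfhx4 rose 3.75-fold, with 5.52, 4.98 and 5.08 in D6/Zbtb20S and 3.06, 2.82 and 3.98 in wildtype replicates (1.91 ± 0.26, adjusted p = 0.00178), and its other set passed as higher too (0.91 ± 0.10). Wildtype replicates 1 and 2 lay under the array median, so the fold may be too small. Wildtype replicate 3, the highest wildtype array for Tshz1, was the highest for Zfhx4 as well. Zhx1 rose 2.17-fold (1.11 ± 0.12, adjusted p = 0.00044), on 1 of its 2 sets, the other lying under the array median throughout (-0.05 ± 0.09). Zhx2, a relative of Zhx1 in a family of repressors, rose 1.65-fold (0.72 ± 0.10, adjusted p = 0.00189). Zeb1, the close relative of Zeb2, was at -0.38 ± 0.12 and did not pass (adjusted p = 0.106), though it passed as lower with equal array medians (-0.40, adjusted p = 0.0465). Adnp2, Homez, Zfhx2, Zfhx3 and Zhx3 were between -0.13 and 0.38 and did not pass. The 4 rises held in all 12 alternatives tried, with adjusted p of at most 0.0153. Adnp was not analysed here.

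The genes that teashirt proteins are reported to act with, or on, were also taken as a list of 11. They were the adaptor Apbb1, its partner Set and the deacetylases Hdac1 and Hdac2, the corepressors Ctbp1 and Ctbp2, the Wnt effector Ctnnb1 (for which the link is known from Drosophila), Sox9 and myocardin (Myocd) from the mouse ureter, Gli1 from mammary tumour cells and the receptor gene Prokr2 from the mouse olfactory bulb. In limma 0 of 11 passed the threshold, against 7.71% of all genes, which does not set the list apart. The median difference of the 11 was -0.10, with a range from -0.35 to 0.27. The smallest p values were those of Ctnnb1 (0.27 ± 0.08, adjusted p = 0.0829) and Hdac1 (-0.22 ± 0.07, adjusted p = 0.117). Gli1 and Myocd lay under the array median on all 6 arrays. Ctnnb1 passed as higher with quantile normalization (0.33, adjusted p = 0.0328) and when its probe sets were averaged (0.45, adjusted p = 0.00454).

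Tshz2 marks near-projecting neurons of cortical layer V in adult mice, and 4 other markers of that class were measured. Of these, 2 fell and 1 rose, where 3.64% of all genes passed as lower and 4.06% as higher. The thyrotropin-releasing hormone receptor gene Trhr read 1.59, 1.61 and 1.41 in D6/Zbtb20S and 3.28, 3.98 and 3.66 in wildtype replicates (-2.11 ± 0.16, limma adjusted p = 4.14e-05), without overlap. Its other probe set did not pass (0.04 ± 0.08) and lay under the array median on all 6 arrays. Vwc2l, a secreted protein gene, was at -1.14 ± 0.13 (adjusted p = 0.000487) and Lypd1, a membrane-anchored modulator of acetylcholine receptors, at 0.48 ± 0.12 (adjusted p = 0.0492). Trhr was above the array median on 1 of 6 arrays and Vwc2l on none, so both were read near the floor. Lypd1 did not pass without D6/Zbtb20S replicate 1 or 3, wildtype replicate 1 or 2, or with its sets averaged (adjusted p up to 0.188). Sla2 was at -0.08 ± 0.09 and did not pass, and Slc17a8 was not analysed here. The median of the list was -0.61. Its summed signal on the linear scale was 85.2 to 97.5 in D6/Zbtb20S and 86.2 to 95.2 in wildtype arrays, most of it from Lypd1 and Sla2.

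**Figure D4:**
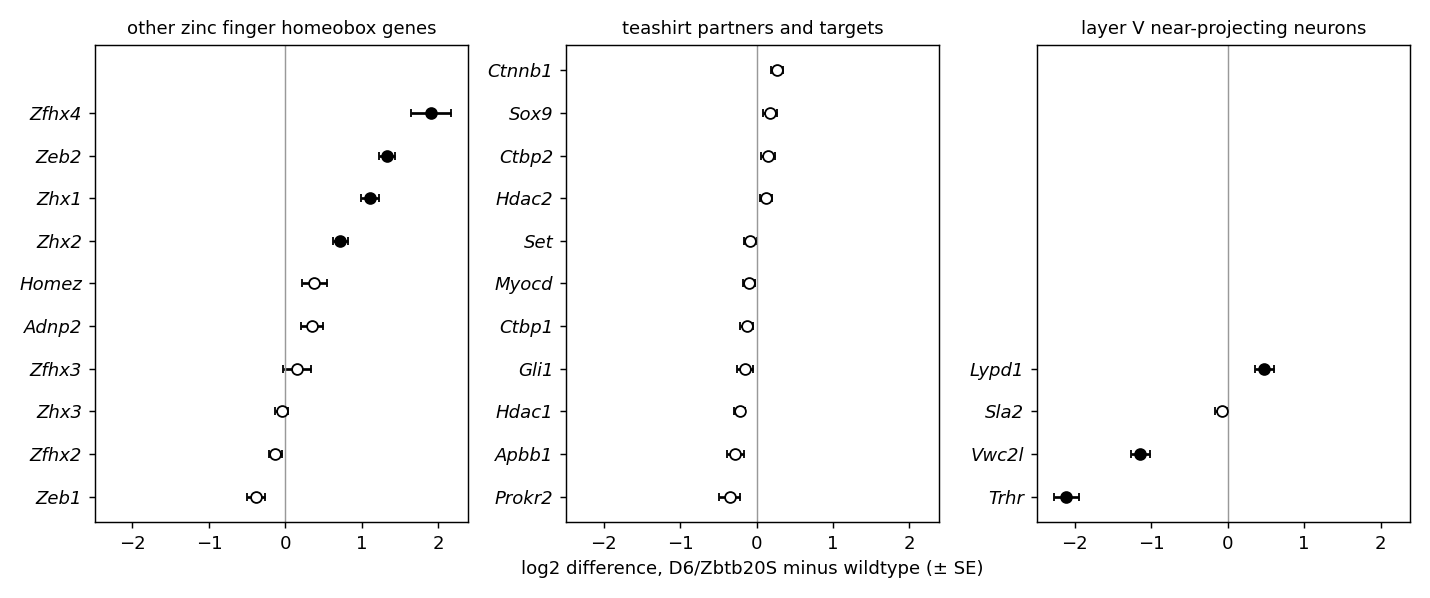
Log2 difference, D6/Zbtb20S minus wildtype, with its standard error (horizontal axis), for each measured gene of 3 lists: other zinc finger homeobox genes, teashirt partners and targets, and markers of layer V near-projecting neurons. Filled points passed an adjusted p under 0.05 in limma. The 4 filled points of the homeobox list all lie right of 0, the partner list has none, and Trhr (-2.11) lies farthest left.

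The dissected tissue was checked against markers. Of 7 measured markers of cortical glutamatergic neurons, 6 were above the array median on all 6 arrays. Between the genotypes 2 rose and 2 fell, in the fit where 4.06% of all genes passed as higher and 3.64% as lower. The falls were Tbr1 (-1.41 ± 0.12) and Fezf2 (-1.19 ± 0.08), and the rises Neurod2 (1.12 ± 0.11) and Bcl11b (0.99 ± 0.10). Of 8 subiculum and retrosplenial markers other than Tshz2, 6 fell and 1 rose (Lypd1, with the lost calls given above), against 3.64% and 4.06% of all genes, with a median difference of -1.39. The falls reached -3.34, for Nr4a2. Among the falls, Slc17a6 did not pass with its probe sets averaged (limma adjusted p = 0.17). Cxcl14 read 3.58, 3.56 and 3.85 in D6/Zbtb20S replicates 1 to 3, each under the median of its array. Pearson's r over genes was 0.9961 to 0.9972 among D6/Zbtb20S arrays, 0.9943 to 0.9967 among wildtype arrays and 0.9884 to 0.9914 between genotypes. Other cell types that can hold teashirt transcripts, or that could enter the dissection, moved as follows.

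Striatum and lateral ganglionic eminence, where Tshz1 is known to be expressed, were represented by 11 measured markers. Of these 3 rose, Meis2 (0.68 ± 0.12), Penk (0.66 ± 0.13) and Ppp1r1b (0.44 ± 0.09), and 0 fell, against 4.06% and 3.64% of all genes, with a median of 0.05 (limma adjusted p of 0.00827 to 0.0133). The summed signal on the linear scale was 833 to 1010 in D6/Zbtb20S and 610 to 665 in wildtype arrays, most of it from Meis2, without which it was 222 to 242 in D6/Zbtb20S and 195 to 227 in wildtype arrays. Of the 11, Gsx2, Sp8, Isl1, Ebf1, Rarb, Drd1 and Drd2 lay under the array median on every array, while Meis2, Penk and Tac1 lay above it on every array. Penk and Ppp1r1b did not pass without D6/Zbtb20S replicate 1 or wildtype replicate 2 (adjusted p up to 0.0563).

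Of 10 GABAergic markers, 2 fell, Gad1 (-0.60 ± 0.10) and Nxph1 (-0.55 ± 0.13), against 3.64% of all genes, and 8 did not pass. The summed signal was 854 to 911 in D6/Zbtb20S and 1050 to 1100 in wildtype arrays. Gad1 was the brightest member on every array and accounts for much of the lower sums. The median difference of the list was -0.18. Nxph1 did not pass without D6/Zbtb20S replicate 1 or 3 or wildtype replicate 1 or 2 (limma adjusted p up to 0.135). Of 6 oligodendrocyte lineage markers, 4 fell, among them Olig2 (-0.77 ± 0.11), against 3.64% of all genes, with sums of 666 to 744 in D6/Zbtb20S and 945 to 1120 in wildtype arrays. Of 9 microglial markers, 3 rose, among them Cx3cr1 (0.87 ± 0.16), against 4.06% of all genes, with sums of 722 to 835 in D6/Zbtb20S and 557 to 591 in wildtype arrays. The microglial count was 5 without D6/Zbtb20S replicate 2, without wildtype replicate 3 or with equal array medians.

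Thalamic markers, which would mark tissue below the dissected areas, had 1 fall among 7, against 3.64% of all genes. It was Slc17a6 (-1.26 ± 0.17), which is also a subiculum marker. The list had sums of 195 to 232 in D6/Zbtb20S and 264 to 335 in wildtype arrays. Slc17a6 was its brightest member on every array and accounts for the lower sums. The median difference of the list was -0.06. Slc17a6 did not pass with its probe sets averaged (limma adjusted p = 0.17). The count was 2, with 1 higher and 1 lower, without D6/Zbtb20S replicate 2, with equal array medians and with bright probe sets only. In limma 0 of 8 meningeal and fibroblast markers and 0 of 8 smooth muscle and pericyte markers passed, where 7.71% of all genes passed. A meningeal marker passed as higher without D6/Zbtb20S replicate 2, and a smooth muscle or pericyte marker without wildtype replicate 3 (1 each). The nearest to passing were Dcn (0.46 ± 0.24) and Col3a1 (-0.43 ± 0.26) in the first list and Pdgfrb (0.31 ± 0.12) and Kcnj8 (-0.14 ± 0.09) in the second. Meningeal sums were 418 to 801 in D6/Zbtb20S and 549 to 870 in wildtype arrays, and those of smooth muscle and pericytes 422 to 529 in D6/Zbtb20S and 401 to 562 in wildtype arrays. The part of any of these cell types in the teashirt values was not tested.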

How the data were processed

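The submitters' processing notes name RMA and limma, with no version, role or order. RMA subtracts background, brings the arrays to a shared distribution and combines probes into probe sets. The deposited table held 1 log2 signal per probe set for each of 6 arrays, and the base was taken from the range of the values. Array medians were 3.86, 3.83 and 3.97 for D6/Zbtb20S and 3.83, 3.87 and 3.91 for wildtype replicates 1 to 3, so it is unknown which scaling or centring came last. Scanner files were not used here, and the number of arrays limits precision.

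The 64 control probe sets were left out. Platform annotation gave 34945 probe sets 1 symbol, 932 several and 9160 none. A gene was represented by its probe set with the highest mean. Gene IDs of the 3 teashirt genes were found in the GRCm38.p6 table, with unchanged symbols.

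Differences, D6/Zbtb20S minus wildtype, came from limma 3.58.1 under R 4.3.3 (functions lmFit and eBayes, no covariates) over all genes or all probe sets, with Benjamini-Hochberg adjustment over all of them. Each adjusted p is from this fit. The fit was tested on simulated data. Figures used matplotlib 3.10.9.

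Members, lists and rules were chosen with earlier results of these data known. The 12 lists held 105 entries, of which 99 were measured. Named genes were every teashirt probe set, the 5 nearest profiles of Tshz2 and Tshz3 and passing members of the homeobox, partner and near-projecting lists. Of each other list up to 4 were named, not always those of smallest p, or the 2 of smallest p where none passed.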

Additional observations from a re-analysis of the deposited data

How the results depend on the processing

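The 12 alternatives were a block on the replicate number, fits without 1 array, equal array medians, quantile normalization, bright probe sets only (above the array median on at least 3 arrays), an intensity trend and averaged probe sets per gene. The block, the bright filter and the trend leave a fitted teashirt difference as it is by construction (18 values). Of the 50 other teashirt differences, 49 moved by less than the spread between replicates, and 0 turned sign. The exception was Tshz2 as the mean of its probe sets (-3.84). With 3 arrays in a group, leaving out 1 array cannot move a difference by as much as that spread. Those fits therefore could not count as moved, and only the remaining settings were free to. With an array left out, Tshz1 ranged from 0.22 to 0.42 on 1427233_at and from 0.28 to 0.51 on 1427232_at. Tshz2 ranged from -4.30 to -4.08 on 1435385_at, from -3.45 to -3.02 on 1428026_at and from -4.30 to -3.89 on 1459250_at, and Tshz3 from -3.40 to -3.18.

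Genes passing numbered 1402, and 777 to 1538 with an array left out (837 without D6/Zbtb20S replicate 1, 777 without wildtype replicate 2). Probe sets passing numbered 2484, and 1162 to 2881 with an array left out (1341 and 1306 without D6/Zbtb20S replicates 1 and 2, 1162 without wildtype replicate 2). Other homeobox genes stayed at 4 when any array was left out. With equal array medians they numbered 5, 4 higher and 1 lower. Partner genes numbered 0 to 1 with an array left out, and 1 without wildtype replicate 1, which was Prokr2 (-0.49, limma adjusted p = 0.0451), named after its value was seen. They numbered 1 with quantile normalization and 1 with the mean of probe sets, Ctnnb1 in both. Near-projecting markers numbered 2 to 3 with an array left out, and 1 with bright probe sets only, where 2 of the markers were tested.

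Deviations of same-numbered arrays correlated at -0.22, 0.18 and -0.01, and those of differently numbered arrays at -0.22 to 0.23, so no pairing by number was seen. These values depend on each other, since deviations were centred within a genotype, and cannot settle whether arrays were paired. With the replicate block 1343 genes and 3304 probe sets passed. Low signals limit Tshz2 on 1428026_at and 1459250_at, whose transgenic arrays lay under the array median.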
